A study of Homo sapiens with 12 samples.

Results

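The retinoblastoma (RB) and E2F families were followed through 12 RNA-seq libraries of SBC3, an established human small cell lung cancer line grown as spheroids. The genes were chosen by symbol: RB1, RBL1 and RBL2 of the RB family, and E2F1, E2F2, E2F3, E2F5, E2F6, E2F7 and E2F8 of the E2F family. All 10 were found among the 60649 genes counted in each library, and all 10 passed the filter on low counts. E2F4 is not in this set and was not analysed here. By treatment label, 3 libraries were controls, whose vehicle is not stated, 3 were exposed to teriflunomide, 3 to lurbinectedin and 3 to both drugs together, called the combination below. Lurbinectedin binds DNA and blocks transcription; teriflunomide blocks DHODH, an enzyme that makes pyrimidines. Doses and exposure times are not stated in the labels. All groups share 1 cell line, and the labels do not say whether replicates were separate cultures, so p-values measure the spread between these libraries, which may be technical.

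RB1 and its relatives RBL1 (p107) and RBL2 (p130) are pocket proteins: they bind E2F transcription factors and hold back the genes that drive entry into S phase. Cyclin-dependent kinases phosphorylate the pocket proteins and release E2F, while inhibitors such as p21 keep the brake on. E2F1, E2F2 and E2F3 are the activators that pair with RB1, E2F5 works mainly with the relatives of RB1, E2F6 represses through Polycomb proteins, and E2F7 and E2F8 are atypical repressors that bind DNA without a DP partner and are not held by pocket proteins. Loss of RB1 function is a hallmark of small cell lung cancer. The counts used here measure messenger RNA and say nothing of RB1 protein, of mutations or of phosphorylation.

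Total counts ran from 23206414 to 33222162 per library. Mitochondrially encoded genes took 6.26% to 7.17% of control counts and 13.8% to 17% of lurbinectedin counts. Teriflunomide replicate 3 had 22.6% where the other 2 had 8.42% and 8.43%, and combination replicate 2 had 24.9% where the others had 14.6% and 13.1%. With mitochondrial genes left out of the fit, the number of members called, as defined below, was the same in every comparison. Any other part of these shares in the results below was not tested. Teriflunomide replicate 3 also stood apart for several family members, and values without it are given for some of them. Of the markers checked in control libraries, YAP1 (246 CPM), KRT8 (243 CPM) and COL1A1 (266 CPM) were abundant and SYP was at 16.8 CPM, where CPM is the usual read count scaled to the library size after TMM adjustment. NEUROD1 was at 4.02 CPM. A further 9 markers were at or near 0, with INSM1 and NCAM1 at 0 in every control library: the neuroendocrine genes INSM1, NCAM1 and CHGA, the tuft cell factor POU2F3, the epithelial genes EPCAM, CDH1 and KRT18, and the blood and endothelial markers PTPRC and PECAM1, which was highest at 0.364 CPM. In bulk RNA, fewer cells of a kind and less RNA per cell cannot be told apart. CPM is relative to the other RNA counted in a library, so rises and falls below are relative too. The amount of RNA per cell is not known from these counts.

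The start regions of 7 members are in RefSeq's promoter set with a start within 1000 bases of the gene's start in the count files; RB1, E2F5 and E2F8 are not. They were searched for 4 spellings of the E2F recognition sequence, TTTCCCGC, TTTCGCGC, TTTGCCGC and TTTGGCGC, on both strands and over 250 bases before to 50 bases after the start. At least 1 spelling was present for 4 of the 7 members, RBL1, E2F1, E2F2 and E2F3, and for 3.32% of all 35116 promoters of that length. The 120 bases before each start are shown because these 4 genes carry such letters while moving in different directions below, and E2F7, the member that rose most, is shown beside them. Sequences are on the strand of the gene, from GRCh38.p14, with capitals for each match.
RBL1, chr20:37095998-37096117, minus strand: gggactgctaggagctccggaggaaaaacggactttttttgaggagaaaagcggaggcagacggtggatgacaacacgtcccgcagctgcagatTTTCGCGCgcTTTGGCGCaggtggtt
E2F1, chr20:33686386-33686505, minus strand: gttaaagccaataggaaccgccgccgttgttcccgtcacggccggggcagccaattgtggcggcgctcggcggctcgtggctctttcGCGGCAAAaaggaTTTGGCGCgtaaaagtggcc
E2F2, chr1:23531234-23531353, minus strand: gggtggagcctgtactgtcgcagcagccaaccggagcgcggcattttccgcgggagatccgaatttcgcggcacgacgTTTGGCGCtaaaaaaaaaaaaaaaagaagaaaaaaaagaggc
E2F3, chr6:20401759-20401878, plus strand: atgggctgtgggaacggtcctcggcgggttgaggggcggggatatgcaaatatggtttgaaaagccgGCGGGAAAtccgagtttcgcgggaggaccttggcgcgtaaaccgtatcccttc
E2F7, chr12:77065570-77065689, minus strand: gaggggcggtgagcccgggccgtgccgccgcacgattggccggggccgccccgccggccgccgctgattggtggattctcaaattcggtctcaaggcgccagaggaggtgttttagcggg
RBL1 holds 2 matches 26 and 16 bases before the start, and E2F1 holds 2 matches on opposite strands 33 and 20 bases before it. E2F2 and E2F3 hold 1 match each, 42 and 53 bases before the start. None of the 4 spellings occurs in the E2F7 window, which says only that these letters are not there.

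In control spheroids E2F3 was by far the most abundant member per length of exon, at 35.0 ± 1.41 CPM per kb (SD, n = 3). RB1 came next with 9.88 ± 0.338 CPM per kb and overlapped E2F6 at 9.23 ± 0.387. E2F5, E2F1 and E2F7 followed at 8.41, 7.65 and 7.46 CPM per kb. E2F5 overlapped E2F1 and E2F1 overlapped E2F7, but E2F7 did not overlap RBL1, the next gene. RBL1 at 5.68 and RBL2 at 5.53 CPM per kb overlapped too. E2F8 was at 4.33 CPM per kb, and E2F2 was lowest at 2.49 ± 0.126. Reads of RB1 were present in every control library, at 1823, 1943 and 2168. With lurbinectedin the order changed: E2F7 led at 39.3 ± 1.52 CPM per kb, E2F3 was second at 23.6 ± 0.378, and RB1, E2F5 and RBL1 were the last 3 at 2.13, 2.02 and 1.40.

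**Figure D1:**
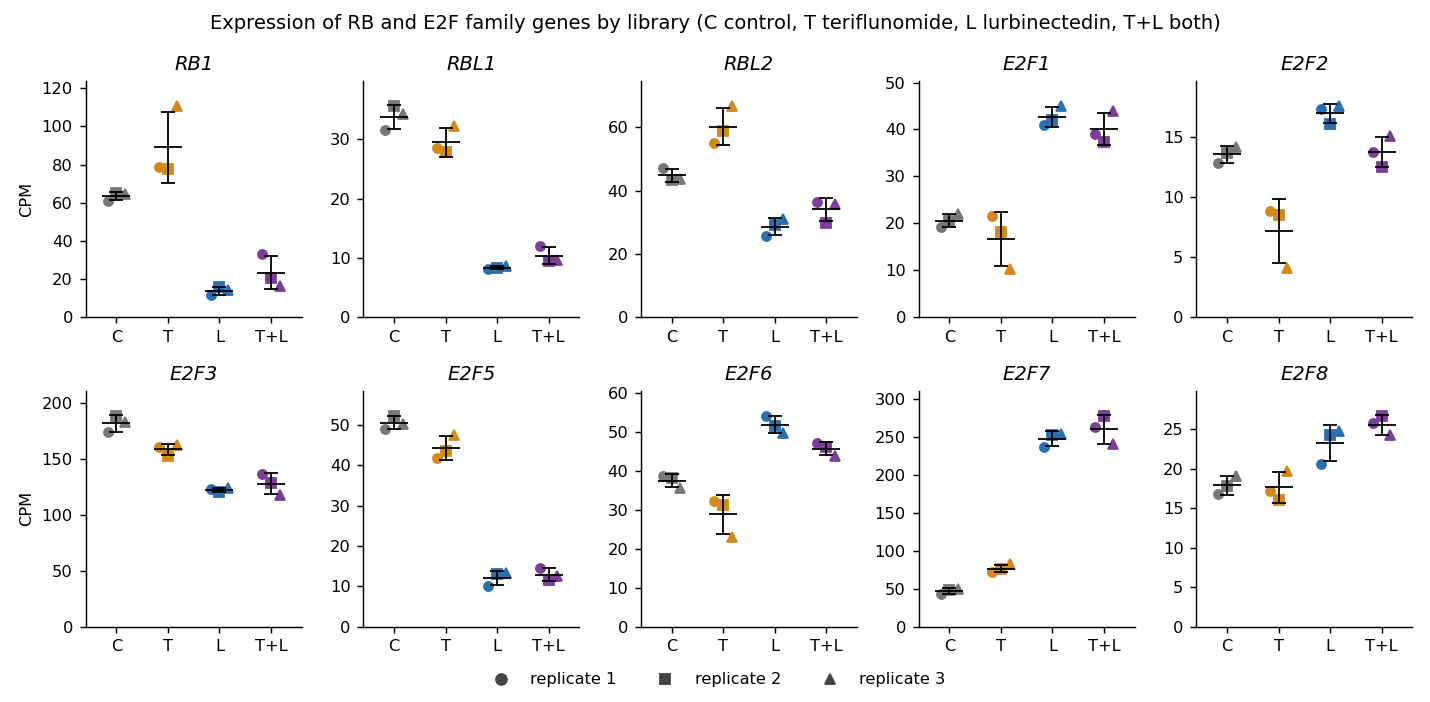
Expression of each member in CPM (vertical axis, from 0, own scale per gene) in the 12 libraries by group; bars are the mean ± SD of 3 libraries and symbols are replicates. Lurbinectedin and combination libraries are far below control for RB1, RBL1 and E2F5 and far above it for E2F7, and the triangle of teriflunomide replicate 3 stands apart for RB1, E2F1 and E2F2.

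Lurbinectedin alone was compared with control first, since it moved most members. A member counts as called below where its Benjamini-Hochberg p over all 16683 tested genes, from the quasi-likelihood test of edgeR, was under 0.05. Of the 10 members 9 were called, 4 higher and 5 lower. Among all genes tested 71.6% were called, 36.0% higher and 35.7% lower, so the number called is not particular to the family. The groups of libraries did not overlap for any of the 10 members, against 83.2% of all genes. The median log2 fold change over the members was -0.12, beside 0.05 for all genes.

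All 3 pocket protein genes fell with lurbinectedin. RB1 (ENSG00000139687.16, chromosome 13, 48303744 to 48599436 of hg38, the build of all gene positions here) read 61.0, 64.9 and 64.7 CPM in the control libraries and 11.4, 15.6 and 14.2 CPM with lurbinectedin. The lurbinectedin libraries all lay far below the lowest control library. By the model this was a log2 fold change of -2.21 ± 0.229 (SE, adjusted p = 1.02e-06 by edgeR), or 4.62-fold lower. RBL1 (ENSG00000080839.12, chromosome 20, 36996349 to 37095997) read 31.7, 35.6 and 34.2 CPM in control and 8.13, 8.32 and 8.57 CPM with lurbinectedin. Its lurbinectedin libraries were nearly alike, and the log2 fold change was -2.02 ± 0.127 (SE, adjusted p = 5.92e-09 by edgeR). RBL2 (ENSG00000103479.17, chromosome 16, 53433977 to 53491648), whose product is the pocket protein of resting cells, fell less. It went from 47.2, 43.5 and 43.8 CPM to 25.8, 28.99 and 31.1 CPM, a log2 fold change of -0.65 ± 0.120 (SE, adjusted p = 0.000261 by edgeR). RBL1 shares 213 bases of exon with another annotated gene on the other strand, and RBL2 shares 609 with AKTIP and 721 with a second gene on the other strand; since use of strand is not stated, reads there cannot be told apart.

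The activator E2Fs did not move as a block: E2F1 rose, E2F3 fell and E2F2 was not called. E2F1 (ENSG00000101412.13, chromosome 20, 33675477 to 33686385) read 19.2, 20.5 and 22.0 CPM in control and 40.9, 42.0 and 44.9 CPM with lurbinectedin. The 2 groups of libraries lay far apart, with a log2 fold change of 1.05 ± 0.198 (SE, adjusted p = 0.000296 by edgeR). E2F3 (ENSG00000112242.15, chromosome 6, 20401879 to 20493714) read 174, 188 and 183 CPM in control and 123, 120 and 124 CPM with lurbinectedin. For this most abundant activator the value was -0.57 ± 0.0863 (SE, adjusted p = 3.85e-05 by edgeR). E2F2 (ENSG00000007968.7, chromosome 1, 23506438 to 23531233) read 12.8, 13.7 and 14.2 CPM in control and 17.3, 16.1 and 17.6 CPM with lurbinectedin. The 2 groups did not overlap, but the log2 fold change of 0.32 (SE 0.208) was not called (edgeR adjusted p = 0.176). Without teriflunomide replicate 3, which enters the shared estimate of the spread, the value was 0.31 and was called (edgeR adjusted p = 0.0101).

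Of the members that repress without being held by RB1, E2F7 showed the largest rise in the family. E2F7 (ENSG00000165891.16, chromosome 12, 77021248 to 77065569) read 42.9, 48.1 and 49.8 CPM in control and 236, 252 and 254 CPM with lurbinectedin. Every treated library was thus well above every control library, with a log2 fold change of 2.40 ± 0.101 (SE, adjusted p = 1.94e-10 by edgeR), a 5.27-fold rise. E2F7 is a known target of p53. Its close relative E2F8 (ENSG00000129173.13, chromosome 11, 19224063 to 19241620) read 16.8, 17.8 and 19.1 CPM in control and 20.6, 24.3 and 24.8 CPM with lurbinectedin. The value for E2F8 was 0.38 ± 0.121 (SE, adjusted p = 0.0123 by edgeR), and it was no longer called without control replicate 1 (0.32, adjusted p = 0.0627) or lurbinectedin replicate 3 (0.32, adjusted p = 0.0572).

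E2F5 fell and E2F6 rose. E2F5 (ENSG00000133740.11, chromosome 8, 85177154 to 85217158) read 49.0, 52.2 and 50.2 CPM in control and 10.1, 13.0 and 13.3 CPM with lurbinectedin. This gave a log2 fold change of -2.05 ± 0.133 (SE, adjusted p = 8.86e-09 by edgeR). E2F5 shares 997 bases of its 5999 bases of exon with RBIS on the other strand, so part of its reads is uncertain. E2F6 (ENSG00000169016.17, chromosome 2, 11444375 to 11466177) read 38.7, 38.2 and 35.8 CPM in control and 54.1, 51.6 and 49.8 CPM with lurbinectedin. Its log2 fold change was 0.47 ± 0.124 (SE, adjusted p = 0.00395 by edgeR). Pseudogenes of E2F3 and E2F6 exist, but none of the 6 in the files had more than 3 reads in any library.

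The calls for E2F6 and E2F8 rest on the scaling. Scaled by library size only, all genes had a median log2 change of -0.18 with lurbinectedin in place of 0.05, and E2F6 (0.23, adjusted p = 0.282) and E2F8 (0.15, adjusted p = 0.364) were not called. Directions of all 10 members in this comparison were the same under every alternative run.

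**Figure D2:**
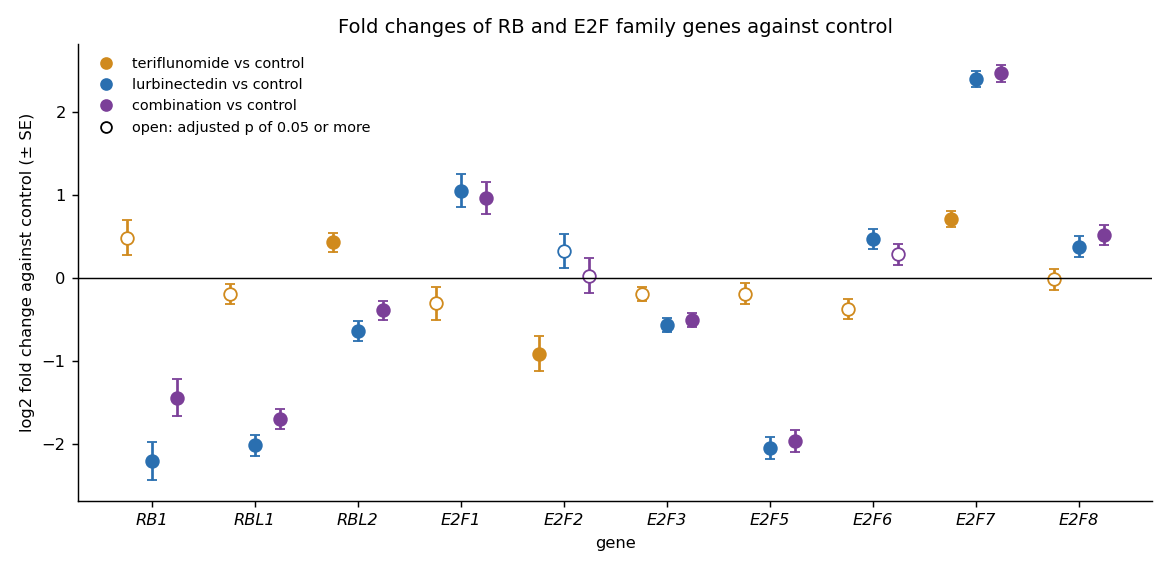
Log2 fold change against control (vertical axis) of each member with teriflunomide, lurbinectedin and the combination; bars are standard errors and open circles have an adjusted p of 0.05 or more. Lurbinectedin and the combination lie close together for most members, with RB1 at -2.21 and -1.44 as the widest gap, while teriflunomide values lie between -0.92 and 0.71.

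Fold changes with lurbinectedin were set beside genomic span, the distance from the first to the last exon, because genes of long span were lower with this drug. The tested nuclear genes were divided by span into 5 bins, with 3330 genes in each bin that holds a member. RB1 spans 296 kb in the count files and 178 kb in RefSeq, and both place it in the longest bin, together with RBL1 (99.7 kb) and E2F3 (91.8 kb). That bin runs from 82.9 to 2305 kb and had a median log2 fold change of -1.86. RB1 at -2.21 and RBL1 at -2.02 were near this median. RBL1 and E2F3 lie near the short end of the bin, and no median was taken for genes of closer length. E2F3 at -0.57 was above this median but inside the 10th to 90th percentile, -4.42 to 0.01. RBL2, E2F5 and E2F7 are in the next bin, from 35.9 to 82.9 kb, with a median of -0.36 and a 10th to 90th percentile of -1.67 to 0.84. RBL2 at -0.65 lay inside that range, whereas E2F5 at -2.05 lay below it and E2F7 at 2.40 above it. E2F2, E2F6 and E2F8 (16.3 to 35.9 kb, median 0.28) and E2F1 (5.26 to 16.3 kb, median 0.62) all lay inside the range of their bins. These positions are descriptions of single genes and were not tested.

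**Figure D3:**
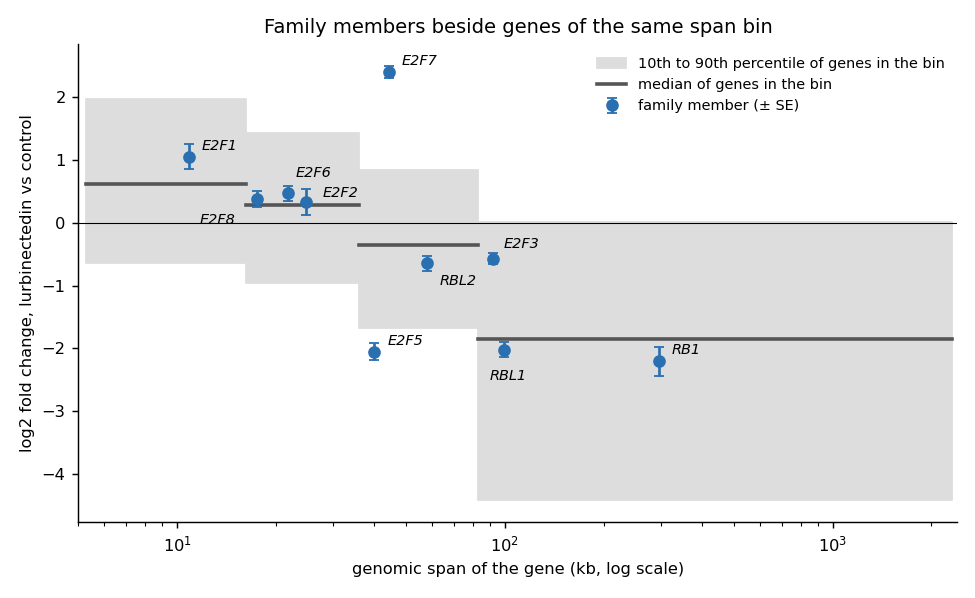
Log2 fold change with lurbinectedin against control (vertical axis) of each member by its genomic span in kb (log scale); bars are standard errors, grey bands run from the 10th to the 90th percentile of genes in the same bin of span and dark lines are their medians. E2F7 at 2.40 lies above its band, E2F5 at -2.05 lies below it and the other 8 members lie within theirs.

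The make-up of both families was also followed. Shares are percentages of summed CPM per kb of exon within a library, which do not depend on the scaling between libraries. Of the 3 pocket genes, RB1 made up 46.0%, 47.1% and 47.4% in control and 28.1%, 32.8% and 29.4% with lurbinectedin, while the share of RBL2 was 26.2% ± 1.72 (SD, n = 3) in control and 49.98% ± 1.51 with lurbinectedin. RBL2 was thus the main pocket transcript in every lurbinectedin library and RB1 in every control library. The sum of the 3 was 21.1 ± 0.419 CPM per kb in control and 7.06 ± 0.647 with lurbinectedin. In the E2F family the share of E2F7 was 9.54%, 10.01% and 10.5% in control and 37.7%, 39.1% and 38.6% with lurbinectedin, and that of E2F3 was 46.9% ± 0.446 and 23.1% ± 0.635. The activators E2F1, E2F2 and E2F3 together made up 60.5% ± 0.393 of the 7 E2F genes in control and 41.6% ± 0.807 with lurbinectedin, and E2F7 with E2F8 15.8% ± 0.680 and 44.0% ± 1.09. The number of E2F7 transcripts per E2F8 transcript, by reads per length, was 1.72 ± 0.0464 in control and 7.02 ± 0.441 with lurbinectedin.

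**Figure D4:**
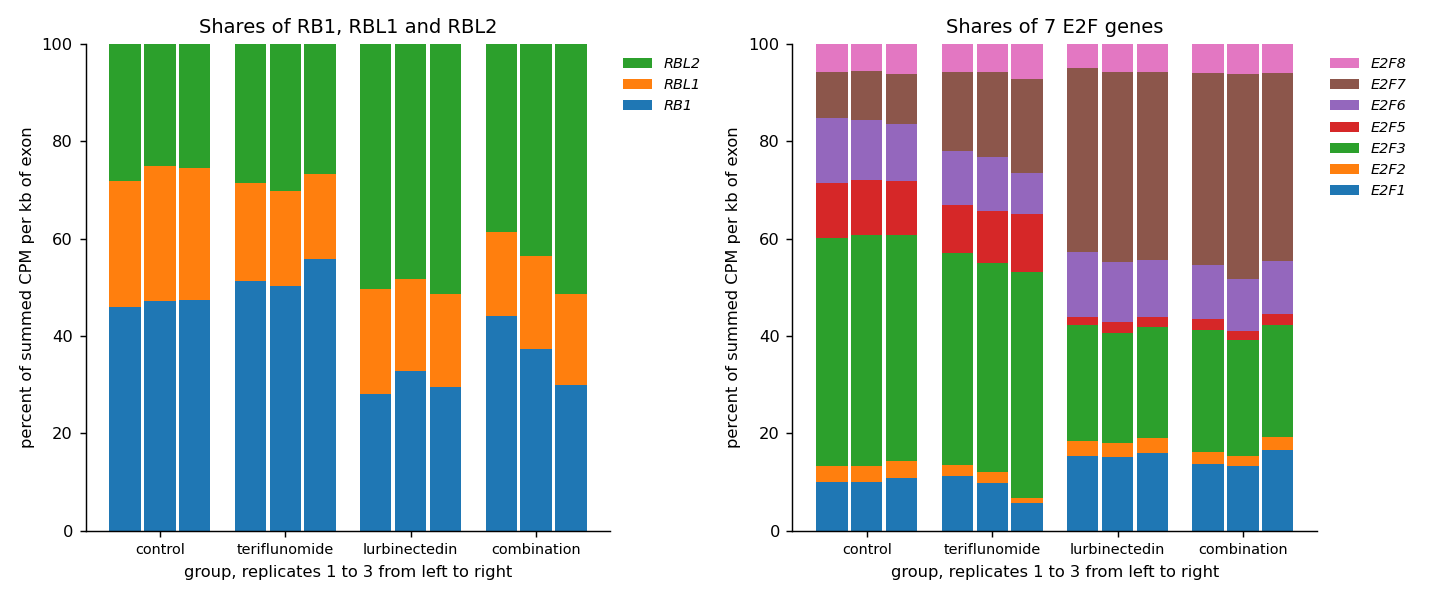
Stacked percentages of summed CPM per kb of exon (vertical axis, 0 to 100) for the 3 RB family genes (left) and the 7 E2F genes (right) in each of the 12 libraries, grouped by treatment. RBL2 takes 48.3% to 51.3% of the RB family and E2F7 37.7% to 39.1% of the E2F genes in lurbinectedin libraries, where control libraries have 25.0% to 28.2% and 9.54% to 10.5%.

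With teriflunomide alone 3 of 10 members were called against control, E2F7 and RBL2 higher and E2F2 lower, where 6.01% of all genes were called, 3.88% higher and 2.13% lower. The groups of libraries did not overlap for 7 of 10 members, against 36.8% of all genes. E2F7 stood at 71.9, 75.7 and 82.1 CPM with teriflunomide and 42.9, 48.1 and 49.8 CPM in control. It was higher in 3 of 3 libraries, with a log2 fold change of 0.71 ± 0.0968 (SE, adjusted p = 0.00152 by edgeR), and 0.65 without teriflunomide replicate 3 (adjusted p = 0.00023). Its share of the 7 E2F genes was 17.7% ± 1.66 with teriflunomide. RBL2 read 55.2, 58.9 and 66.7 CPM with teriflunomide, all above control, with a log2 fold change of 0.43 (SE 0.119). Its edgeR adjusted p of 0.0499 was barely under the threshold, and the call was lost in 15 of 23 alternatives, among them the fits without control replicate 1, 2 or 3 (adjusted p = 0.133, 0.171 and 0.180), teriflunomide replicate 2 (0.0822), any one lurbinectedin library (0.0638 to 0.0777) or combination replicate 1 (0.0567).

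E2F2 read 8.88, 8.53 and 4.12 CPM with teriflunomide, each below the lowest control library at 12.8 CPM. For this activator the value was -0.92 ± 0.213 (SE, adjusted p = 0.0249 by edgeR). It was -0.64 without teriflunomide replicate 3 (adjusted p = 0.00227) and lost its call without control replicate 1, 2 or 3 (adjusted p = 0.0795, 0.0914 and 0.108), where the value was -0.96, -0.91 and -0.88. E2F1 read 21.5, 18.1 and 10.2 CPM with teriflunomide, so replicates 1 and 2 were within or near the control range and replicate 3 was well below it. Its log2 fold change of -0.31 (edgeR adjusted p = 0.351) became -0.06 without that library. RB1 read 78.9, 77.6 and 111 CPM, all above control, with a log2 fold change of 0.49 (SE 0.215) that was not called (edgeR adjusted p = 0.181) and was 0.30 without replicate 3. Without the filter on low counts RB1 was called (0.45, edgeR adjusted p = 0.0401), beside 5.06% of all genes. In replicate 3, then, RB1 was highest and E2F1 and E2F2 were lowest of all 12 libraries, and this is the library with 22.6% mitochondrial counts. E2F6 read 32.4, 31.2 and 23.1 CPM, below control in all 3, with a log2 fold change of -0.38 ± 0.124 (SE, adjusted p = 0.0865 by edgeR). Its value was -0.24 without teriflunomide replicate 3 (edgeR adjusted p = 0.105). For RBL1, E2F3, E2F5 and E2F8 the log2 fold changes were between -0.20 and -0.02 and were not called.

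In the combination 8 of 10 members were called against control, 3 higher and 5 lower, beside 68.4% of all genes, 34.1% higher and 34.4% lower. The groups did not overlap for 9 of 10 members, against 77.2% of all genes. This comparison shares its control libraries with the one of lurbinectedin alone. E2F7 reached 262, 277 and 240 CPM, for a log2 fold change of 2.47 ± 0.101 (SE, adjusted p = 1.82e-10 by edgeR). E2F1 was at 39.1, 37.3 and 43.8 CPM (log2 fold change 0.96, SE 0.198, edgeR adjusted p = 0.000667). E2F8 was at 25.8, 26.7 and 24.3 CPM (0.51, SE 0.121, edgeR adjusted p = 0.00176). These 3 members rose in every combination library. E2F5 at 14.7, 11.5 and 12.6 CPM had a log2 fold change of -1.96 ± 0.132 (SE, adjusted p = 1.61e-08 by edgeR). RBL1 read 12.01, 9.56 and 9.59 CPM, a log2 fold change of -1.70 ± 0.124 (SE, adjusted p = 3.32e-08 by edgeR). RB1 read 33.2, 20.3 and 16.5 CPM. All 3 RB1 values were below control, and combination replicate 1 was the highest of them by a wide margin. For RB1 the fitted value was -1.44 ± 0.222 (SE, adjusted p = 5.28e-05 by edgeR), and -1.79 without that library. E2F3 (-0.51, edgeR adjusted p = 0.000124) and RBL2 (-0.39, edgeR adjusted p = 0.00954) also fell. E2F2 at 13.8, 12.6 and 15.1 CPM overlapped control (log2 fold change 0.02, edgeR adjusted p = 0.923). E2F6 at 47.1, 46.1 and 43.9 CPM was above every control library, with a log2 fold change of 0.28 that was not called (edgeR adjusted p = 0.0551) except without teriflunomide replicate 3 (0.28, adjusted p = 0.00481) among the fits that left out 1 library.

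Against teriflunomide alone, which measures lurbinectedin on top of teriflunomide, 10 of 10 members were called in the combination, 5 higher and 5 lower, beside 70.9% of all genes, 35.2% higher and 35.8% lower. The groups did not overlap for 10 of 10 members, against 70.7% of all genes. The pocket genes RB1, RBL1 and RBL2 fell by 1.93, 1.51 and 0.82 on the log2 scale, and E2F5 and E2F3 fell by 1.78 and 0.31 (edgeR adjusted p from 3.97e-08 to 0.00522). E2F7 rose by 1.76 and E2F1 by 1.27 on the log2 scale, followed by E2F2 at 0.94, E2F6 at 0.66 and E2F8 at 0.53 (edgeR adjusted p from 2.58e-09 to 0.00131). Without teriflunomide replicate 3 the values were 1.01 for E2F1 and 0.66 for E2F2, and both were still called.

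Whether teriflunomide added to lurbinectedin was asked by comparing the combination with lurbinectedin alone. By edgeR 0 of 10 members were called (0% of all genes). Of the members 2, RB1 and RBL1, had an unadjusted edgeR p under 0.05, as did 2599 of all 16683 genes. DESeq2 called 1, RB1, beside 2.75% of all genes. The groups did not overlap for 4 of 10 members, against 23.7% of all genes. RB1 had a log2 fold change of 0.76 ± 0.225 (SE, adjusted p = 0.172 by edgeR), with the groups not overlapping. It was called without teriflunomide replicate 3 (0.77, adjusted p = 0.0249) and was 0.43 without combination replicate 1 (adjusted p = 0.637), so its size rests on that library. RBL1 stood at 0.32 (SE 0.127, edgeR adjusted p = 0.267) and RBL2 at 0.25 (SE 0.121, edgeR adjusted p = 0.331). For E2F7 the difference was 0.07, with an interval of estimate ± 1.96 SE from -0.12 to 0.26. For E2F1 it was -0.09, with an interval from -0.47 to 0.29.

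The interaction, the teriflunomide effect with lurbinectedin minus that without it, was called for 0 of 10 members by edgeR (0.258% of all genes). An unadjusted edgeR p under 0.05 was found for 3, E2F7, RBL1 and E2F3, and for 1726 of all 16683 genes. DESeq2 called 1, E2F7, beside 1.44% of all genes. The E2F7 value was -0.64 ± 0.136 (SE, adjusted p = 0.0900 by edgeR): the difference between teriflunomide and control was 0.71 and that between the combination and lurbinectedin was 0.07. It was called without teriflunomide replicate 3 (-0.57, edgeR adjusted p = 0.0133) and over the 22 alternatives its adjusted p ran from 0.00112 to 1. RBL1 had an interaction of 0.51 (SE 0.173, edgeR adjusted p = 0.323), called without teriflunomide replicate 3 (0.59, adjusted p = 0.0463).

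Profiles over the 12 libraries, as log2 of CPM plus 0.1, were compared with those of 10311 genes at 5 CPM or more on average. USP12, B4GALT6 and REEP3 were most like RB1, each with a Pearson r of 0.998, and ZFTA, FHL3 and BAHD1 were most like E2F1 with 0.996, 0.994 and 0.994. The libraries fall into 6 with and 6 without lurbinectedin, and these values describe mainly that split.

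The proteins that act with the families were followed through lists written from general knowledge. Unlike the members, the listed genes were not set beside genes of the same span bin. The first list held DP partners and MuvB core genes, which complete E2F dimers and the DREAM repressor complex. It also held MYBL1 and MYBL2, which are neither. Of its 9 genes, 2 rose and 5 fell with lurbinectedin, where 36.0% of all genes rose and 35.7% fell. Their median log2 fold change was -0.43. TFDP2, a DP partner of E2F, fell by 3.95 on the log2 scale, from 49.3 ± 1.69 to 3.16 ± 0.455 CPM (SD, n = 3; edgeR adjusted p = 2.24e-09). LIN52 and LIN9 of the MuvB core fell by 1.91 and 1.01. The same list had 0 called higher without control replicate 1, 2 or 3 or lurbinectedin replicate 2 or 3, 1 without lurbinectedin replicate 1, and 5 called lower in each of these fits; without a control library 65.3% to 65.5% of all genes were called. Of 15 cyclins, kinases and inhibitors, 14 were tested, 11 rose and 1 fell, with a median of 0.82. CDKN1A, which encodes the inhibitor p21, rose from 22.8 ± 1.61 to 619 ± 42.2 CPM (edgeR adjusted p = 3.96e-10), and CDKN2B, which encodes p15, rose from 1.18 ± 0.0696 to 37.1 ± 1.10 CPM. CDK6, a kinase that phosphorylates RB1, was the 1 that fell, from 75.4 ± 1.57 to 2.995 ± 0.498 CPM (edgeR adjusted p = 8.24e-10).

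Lists of G1/S genes activated by E2F and of G2/M genes repressed by DREAM are described beside the shares of all genes. These shares were 36.0% higher and 35.7% lower with lurbinectedin, and the list counts are not a result particular to the listed genes. Of 38 G1/S genes, 14 rose and 10 fell, with a median log2 fold change of 0.14, and 10 rose and 14 fell with library size as the only scaling. PCNA and RRM2, a sliding clamp and a ribonucleotide reductase subunit, rose by 1.39 and 1.46 on the log2 scale, while POLA1, the catalytic subunit of DNA polymerase alpha, fell by 4.03. Of 26 G2/M genes, 8 rose and 8 fell, with a median of -0.15, and 6 rose and 15 fell with library size only. Without teriflunomide replicate 3 the G2/M numbers were 9 and 14, and 77.2% of all genes were called. BUB1B and BUB1, spindle checkpoint kinases, fell by 1.51 and 1.06, and UBE2C, a ubiquitin-conjugating enzyme of mitosis, rose by 1.30. The counts with the combination were close: 2 and 4 for partners, 11 and 1 for cyclins, kinases and inhibitors, 14 and 11 for G1/S genes and 8 and 10 for G2/M genes, where 34.1% of all genes rose and 34.4% fell.

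With teriflunomide alone, 3.88% of all genes rose and 2.13% fell. MYBL1, listed with the partners though not one of them, rose by 0.84 (edgeR adjusted p = 0.0195). CDKN1A and CDKN2B rose by 0.94 and 1.21 among the inhibitors. Of 38 G1/S genes 6 fell, with MCM6 of the replicative helicase at -0.57 (edgeR adjusted p = 0.00353). Of the 26 G2/M genes 0 were called by edgeR and 4 by DESeq2, which called 1837 of all 16683 genes where edgeR called 1002; PLK1, with the smallest adjusted p, had a log2 fold change of -0.40 (edgeR adjusted p = 0.0535). Leaving out teriflunomide replicate 1, teriflunomide replicate 3 or combination replicate 2 called 2, 3 and 1 of them, all lower, beside 7.44%, 9.11% and 6.74% of all genes. Of the G1/S genes 1 was called lower without control replicate 1, 2 or 3, 3 without teriflunomide replicate 2, 7 without teriflunomide replicate 3 and 0 with library size only. All-gene shares were 1.26% to 1.55% without a control library, 3.78% without teriflunomide replicate 2 and 1.59% with library size only. Neither MYBL1 nor the 2 inhibitors were called without any one control library, and 1 gene of the cyclin, kinase and inhibitor list was called without teriflunomide replicate 3. Against lurbinectedin alone the combination called 0 genes in each of the 4 lists by edgeR, and DESeq2 called 2, 1, 1 and 0 in partners, inhibitors, G1/S and G2/M genes. Without teriflunomide replicate 3, edgeR called 3, 2, 7 and 5 of them, and 12.1% of all genes.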

How the data were processed

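Per the labels' protocols, RNA came from an RNeasy Plus Mini purification and went into KAPA mRNA HyperPrep libraries. The authors deposited raw read counts per gene, with summed exon lengths. The submitters' processing notes name fastp 0.23.2, STAR 2.7.9, Subread featureCounts and hg38. The annotation release, the use of strand and the treatment of multi-mapping reads are not given in the sources used here. All 37318 gene versions shared with GENCODE 29 had identical GRCh38 coordinates; these include 0 of the 10 members, of which 2 have the same start and end there. A table of gene names gave symbols to 99.7% of genes.

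Counts were tested with edgeR 4.0.16 in R 4.3.3 after filterByExpr (16683 genes kept) and TMM scaling. The 12 libraries entered a single robust quasi-likelihood fit on the 4 groups, and p-values were adjusted by the Benjamini-Hochberg method within each of 6 comparisons. The main edgeR fit, but not the alternatives, was run on simulated counts. These had few changed genes, in lurbinectedin libraries only, and no library that stood apart. They do not show how the fit performs where most genes change or 1 library deviates, as here. Standard errors come from the F statistic, and CPM uses TMM-scaled library sizes. DESeq2 1.42.0 was an alternative. The members, lists and tests were chosen with earlier results of these data known. Every member was named; of each list, the 3 genes with the smallest adjusted p with lurbinectedin and the 1 with teriflunomide, and for likeness the 3 highest correlations for RB1 and E2F1.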

Additional observations from a re-analysis of the deposited data

How the results depend on the processing

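Each of the 60 log2 fold changes was recomputed under up to 23 alternatives, 1370 values in all, of which 1298 kept their direction and their side of the threshold, 41 lost a call, 20 gained one and 11 changed sign; the cause was not tested. The number of members called with teriflunomide was 3, and it was 1 with library size as the only scaling, at an adjusted p under 0.01, with the replicate block or with only the groups compared, 0 under the TREAT test against a 1.5-fold change, and 1 to 3 when 1 library was left out. Of all genes 1.59%, 1.38%, 2.49%, 1.83% and 0.198% were called under the first 5 of these. When 1 library was left out, 1.26% to 9.11% of all genes were called with teriflunomide. The number of members called with teriflunomide was larger, at 4, with DESeq2, which added E2F6 and called 1837 of all 16683 genes. It was also 4, with E2F3 added, without both libraries of highest mitochondrial share, where 16.3% of all genes were called. TREAT called 5 members in place of 9 with lurbinectedin (48.1% of all genes) and 5 in place of 8 with the combination against control (43.6%). In the combination against lurbinectedin 0 members were called, but 1 with DESeq2, 1 with no expression filter (1.72% of all genes), 0 to 1 when 1 library was left out (12.1% without teriflunomide replicate 3), and 2 without both libraries of highest mitochondrial share, an alternative chosen after seeing the data (21.5% of all genes). For the interaction these numbers were 1 with DESeq2, 0 to 2 when 1 library was left out and 2 without both such libraries, while the share of all genes was 0.258%, and 1.44% with DESeq2, 3.61% without teriflunomide replicate 3 and 10.9% without both. No sign change concerned a called value: E2F2 in the combination against control was -0.13 with library size only, -0.034 with no expression filter and -0.044 to 0.082 when 1 library was left out; leaving out 1 library gave -0.111 to 0.047 for E2F8 with teriflunomide, -0.0129 to 0.1703 for E2F5 in the combination against lurbinectedin, and -0.045 to 0.477 for RB1 and -0.024 to 0.446 for E2F1 in the interaction. Same-numbered libraries did not pair: 1 of 18 pairs had deviations correlated above 0.1, with r from -0.40 to 0.14, and 2 of 12 libraries correlated best with their own number. With 3 libraries a group, the smallest change called with lurbinectedin was 1.30-fold, for E2F8, while E2F2 at 1.25-fold was not called.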
